A study of Mus musculus with 3 samples.

Results

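The 6 genes followed here mark mast cells and basophils and were compared across fetal livers of 3 mouse genotypes: Cpa3, Mcpt8, Ms4a2, Fcer1a, Hdc and Gzmb. Members were taken by gene symbol in the platform's probe annotation, which named 1 probe each for Cpa3, Mcpt8, Ms4a2 and Gzmb, 4 probes of 20289 on the array, and none for Fcer1a or Hdc. The genotypes were DNase II-deficient, DNase II- and IFN-IR-double deficient (IFN-IR is the type I interferon receptor) and wild-type. All embryos were at stage E14.5, in days of gestation, with 1 CodeLink array for each genotype. The double-deficient embryos lack DNase II as well as the receptor. Group names below are those of the labels, which do not give strain background or the number of embryos behind an array. With 1 array per genotype there was no replicate check, no difference carries a test, and fewer cells of a type cannot be told apart from less RNA per cell.

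Mast cells and basophils are granulocytes that carry the IgE receptor and release histamine and proteases when antigen crosslinks it. Their receptor is built of an alpha chain that binds IgE (Fcer1a), a beta chain that amplifies the signal (Ms4a2) and a gamma chain shared with other Fc receptors (Fcer1g). Their granules hold carboxypeptidase A3 (Cpa3), serine proteases such as Mcpt8, the basophil protease of the mouse, and histamine made by histidine decarboxylase (Hdc). Granzyme B (Gzmb) is best known from killer lymphocytes and is also made by mouse mast cells. The fetal liver is a blood-forming organ and contains the progenitors of these cells.

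The deposited values are normalised intensities on a linear scale, with array medians between 0.958 and 0.964. Values under an array's 25th percentile, between 0.159 and 0.163, were raised to that floor before log2 transformation. The probe for Dnase2a, the gene of DNase II, read 48.6 in the DNase II-deficient array, 39.7 in the double-deficient array and 40.4 in the wild-type array. Ifnar1, a chain of the receptor, read 4.66, 3.17 and 3.60 in the DNase II-deficient, double-deficient and wild-type arrays. The labels do not place either probe inside or outside the deleted sequence, so the genotypes rest on the labels. Hepatocyte transcripts were bright in every array, among them Afp at 885.1 in the DNase II-deficient, 568.5 in the double-deficient and 582.5 in the wild-type array.

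Cpa3 and Mcpt8, the granule proteases, were lowest in the DNase II-deficient array and highest in the double-deficient array. Cpa3 read 1.43 in the DNase II-deficient array, 2.98 in the double-deficient array and 2.35 in the wild-type array. Mcpt8 read 1.32 in the DNase II-deficient array, 3.07 in the double-deficient array and 2.14 in the wild-type array. Both probes lay above the array median on all 3 arrays, so their values do not depend on the floor. The other measured members were dimmer and followed other orders. Ms4a2 read 0.263 in the DNase II-deficient array, 0.336 in the double-deficient array and 0.196 in the wild-type array. Gzmb read 0.642 in the DNase II-deficient array, 0.273 in the double-deficient array and 0.412 in the wild-type array. Ms4a2 was lowest in wild-type and Gzmb lowest in the double-deficient array, and each stayed under the array median throughout. Their signal was between 1.21 and 4.05 times the floor.

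**Figure D1:**
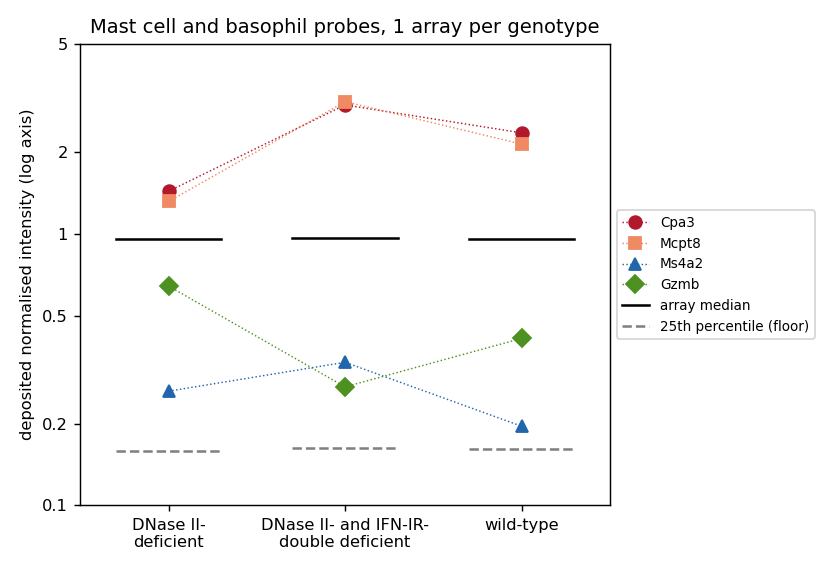
Deposited normalised intensity (log axis) of the 4 measured members on the 3 arrays, with dotted lines joining the values of a probe, solid bars at each array's median and dashed bars at its 25th percentile. Cpa3 and Mcpt8 lie above the median on every array and are lowest in the DNase II-deficient array, at 1.43 and 1.32, while Ms4a2 and Gzmb lie between the floor and the median.

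By their labels, DNase II-deficient and wild-type livers differ in DNase II, and the first comparison asks how the members differ between them. Each has 1 array, so genotype cannot be told apart from embryo or array. Cpa3 was 1.64-fold lower in the DNase II-deficient array than in wild-type, a log2 difference of -0.71. Mcpt8 was 1.63-fold lower, at -0.70. These were the 2 members of 4 measured that passed the level filter (brighter than the median probe of 1 or both arrays), and both were past 1.5-fold, as were 20.2% of the 8383 genes compared in that direction. The differences were not unusual in size. Of all genes compared, 14.3% were as low as Cpa3 or lower and 14.8% as low as Mcpt8 or lower, and the median of all genes was -0.21. Among the 500 genes nearest in level, the spread of the difference (the median absolute deviation, scaled as a standard deviation) was 0.49 for Cpa3 and 0.50 for Mcpt8. Scaled to the 75th percentile, neither gene passed 1.5-fold, with Cpa3 at -0.58 and Mcpt8 at -0.57 on the log2 scale. The same held for cyclic loess, at -0.54 and -0.53, and for a pseudocount of 0.5 in place of the floor, at -0.56 and -0.54.

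The dim members had positive values in the same comparison. Ms4a2 had a log2 difference of 0.43 and Gzmb of 0.64, where genes of like level had spreads of 0.87 and 0.60. The median over the 4 measured members was -0.14. It stands between a pair of negative and a pair of positive values, so the members had no common direction between DNase II-deficient and wild-type livers.

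The comparison of the mutants asks what differs when the interferon receptor is missing as well. Both granule protease genes were at least 2-fold higher in the double-deficient array than in the DNase II-deficient array. Cpa3, at 2.98 and 1.43, was 2.08-fold higher, a log2 difference of 1.06. Mcpt8, at 3.07 and 1.32, was 2.33-fold higher, at 1.22. Both were among the 3.11% of 8303 genes past 2-fold in that direction, and 12.5% were past 1.5-fold. Cpa3 was matched or exceeded by 2.66% of all genes compared and Mcpt8 by 1.65%, with an all-gene median of 0.11 and spreads at like level of 0.45 and 0.41. Under the other scalings, floors and filters tried, Cpa3 lay between 0.85 and 1.06 and Mcpt8 between 0.97 and 1.23. Cpa3 was short of 2-fold with 75th percentile scaling (0.98), cyclic loess (0.94) and the pseudocount (0.85), and Mcpt8 with the pseudocount alone (0.97).

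Gzmb went the other way between the mutants. It read 0.273 in the double-deficient array and 0.642 in the DNase II-deficient array, a log2 difference of -1.23, below the level filter and with a spread of 0.51 at like level. With the pseudocount, the difference was -0.56. Ms4a2, at 0.336 and 0.263, differed by 0.35, less than the spread of 0.57 among genes as dim. The median over the 4 measured members was 0.70.

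**Figure D2:**
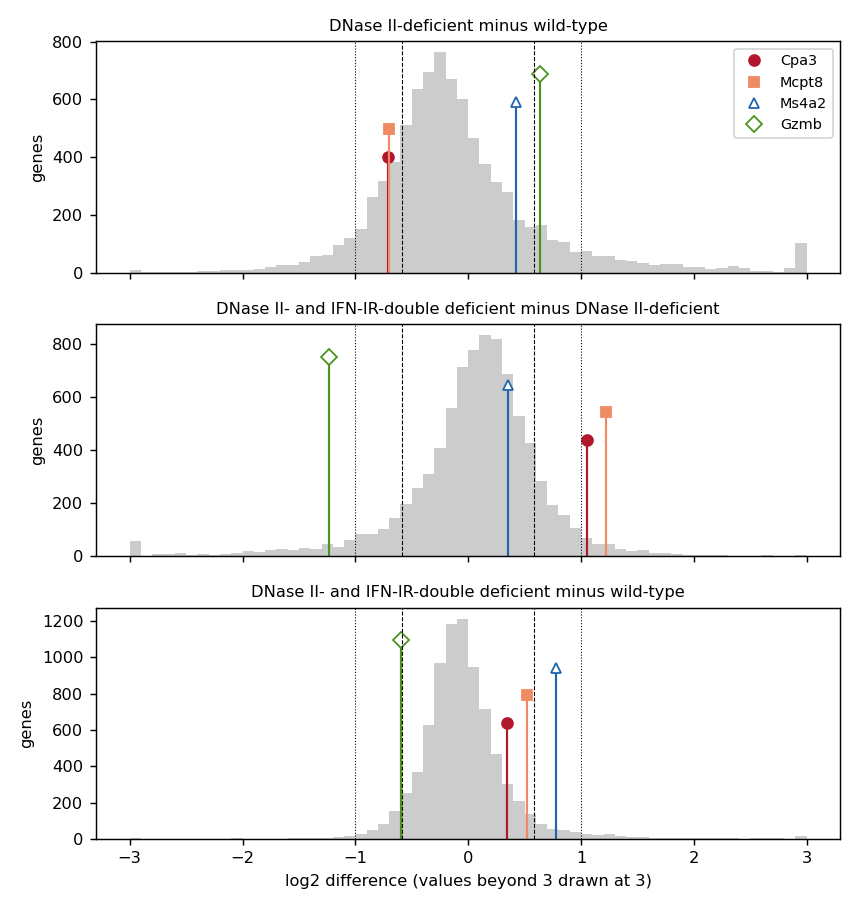
Log2 differences of all genes past the level filter (grey bars, number of genes per bin of 0.1) in the 3 comparisons, with the members marked (filled where they passed the filter, open where they did not), dashed lines at 1.5-fold and dotted lines at 2-fold. Cpa3 and Mcpt8 lie on the shoulder of the DNase II-deficient minus wild-type distribution, at -0.71 and -0.70, and in the upper tail of the comparison of the mutants, at 1.06 and 1.22.

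In double-deficient against wild-type livers the granule protease genes were higher by less than 1.5-fold. Cpa3, at 2.98 and 2.35, had a log2 difference of 0.34, and Mcpt8, at 3.07 and 2.14, of 0.52. Genes of like level had spreads of 0.26 for both, around an all-gene median of -0.08. None of the members that passed the level filter was past 1.5-fold, as 4.89% of the 8158 genes were in the higher and 4.85% in the lower direction. Past 2-fold were 2.05% in the higher and 0.735% in the lower direction. Ms4a2, at 0.336 and 0.196, had a log2 difference of 0.78, and Gzmb, at 0.273 and 0.412, of -0.59, both from values under the array median. The 3 comparisons share arrays, so each array's value enters a pair of them.

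The sequences upstream of Cpa3 and Mcpt8 are shown because these genes followed the same order of arrays. Each is the 250 bases before the start in RefSeq's mouse build GRCm38.p6, 5′ to 3′ on the gene's strand. The Cpa3 window is chr3:20242182-20242431 and the Mcpt8 window chr14:56085198-56085447, both on the minus strand. Capitals mark GATA sites, the motif bound by GATA factors, searched on both strands as GATA with A or T before it and A or G after it.
Cpa3: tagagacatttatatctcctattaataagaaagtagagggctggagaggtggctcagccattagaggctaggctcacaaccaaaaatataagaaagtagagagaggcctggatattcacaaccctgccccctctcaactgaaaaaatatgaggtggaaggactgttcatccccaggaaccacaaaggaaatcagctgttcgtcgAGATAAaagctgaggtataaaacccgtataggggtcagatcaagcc
Mcpt8: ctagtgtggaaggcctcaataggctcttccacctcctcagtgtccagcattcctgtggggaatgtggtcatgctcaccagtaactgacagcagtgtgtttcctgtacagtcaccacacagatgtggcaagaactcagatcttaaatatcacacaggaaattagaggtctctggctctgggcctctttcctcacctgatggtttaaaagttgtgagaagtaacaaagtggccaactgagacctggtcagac
Cpa3 held 1 such site, AGATAA, from 46 to 41 bases before its start, and Mcpt8 held none. Of 32851 promoter windows of this length, 26.5% held at least 1. Ms4a2 held 3, Fcer1a and Hdc 1 each, and Gzmb none. These are matches of letters and do not show binding.

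Mcpt8 and Gzmb belong to a cluster of chymase and granzyme genes on mouse chromosome 14, which runs from Cma1 to Gzmb over 15 protein-coding genes in GRCm38.p6. Of these, 11 had a named probe, and Gzmd, Gzmg and Gzmn were at the floor on all 3 arrays. Mcpt4, the connective tissue mast cell chymase next to Mcpt8, was lowest in the DNase II-deficient array too. It read 1.15 in the DNase II-deficient array, 2.14 in the double-deficient array and 2.56 in the wild-type array, 2.23-fold lower in DNase II-deficient than in wild-type liver. Mcpt2, a mucosal mast cell chymase, read 4.60, 5.99 and 6.28 in the DNase II-deficient, double-deficient and wild-type arrays. The protein-coding neighbour of Mcpt8 on the other side, Ctsg, the cathepsin G of neutrophil and mast cell granules, was highest in the DNase II-deficient array and lowest in wild-type, the reverse of the order of Mcpt4. It read 20.8 in the DNase II-deficient array, 17.2 in the double-deficient array and 7.44 in the wild-type array, 2.80-fold higher in DNase II-deficient than in wild-type liver. The brighter Gzmf probe read 7.14, 10.5 and 11.8 in the DNase II-deficient, double-deficient and wild-type arrays. The other Gzmf probe was near or under the floor. These genes are close relatives, and how far their probes tell them apart is unknown here.

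**Figure D3:**
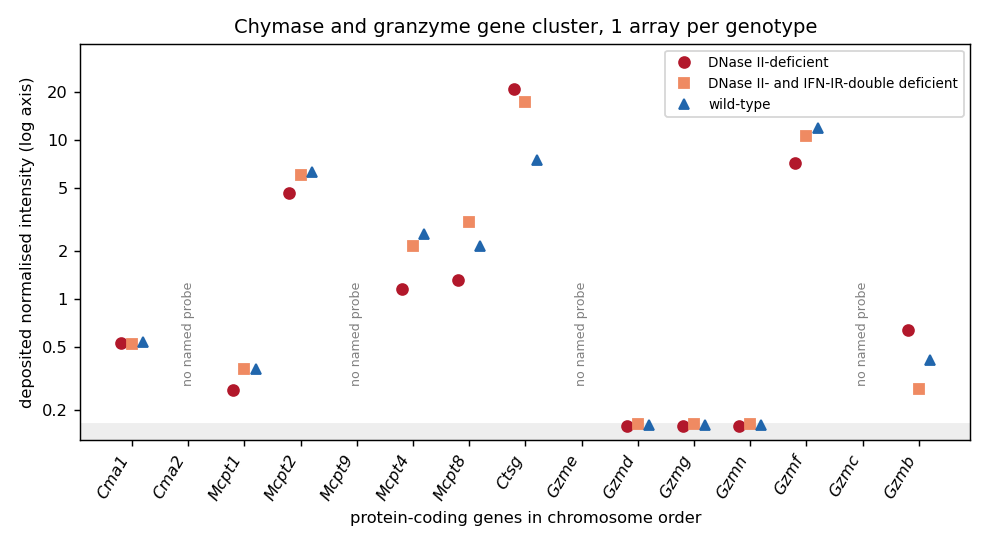
Deposited normalised intensity (log axis) of the chymase and granzyme genes on chromosome 14, in gene order and not to genomic scale, on the 3 arrays, with the brightest probe of each gene and values at the floor drawn in the grey band. Mcpt4 and Mcpt8 have their lowest value in the DNase II-deficient array, at 1.15 and 1.32, whereas Ctsg beside them has its highest there, at 20.8.

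Other genes listed for mast cell proteases and granules, not all particular to mast cells, had no common direction. In DNase II-deficient against wild-type livers, 7 had positive and 8 negative differences. Of 16 with a probe, 11 passed the level filter in DNase II-deficient against wild-type livers, 3 were past 2-fold in the higher direction and 1, Mcpt4, in the lower, where 7.67% and 6.17% of all genes were. The median over 15 genes above the floor was -0.01. Besides Ctsg, those past 2-fold higher were Srgn and Cpa1. Srgn, the proteoglycan core protein serglycin of many blood cells, read 110.6 in the DNase II-deficient and 46.6 in the wild-type array. Cpa1, a pancreatic carboxypeptidase, read 1.83 and 0.714. The mast cell tryptase gene Tpsab1 read 5.33 and 6.47 in those arrays. The tryptase genes Tpsb2, at 4.66 and 4.34, and Tpsg1, at 2.44 and 1.46, were higher in the DNase II-deficient array. Between the mutants, no gene of the list that passed the filter was past 2-fold in either direction and the median was -0.05. Mcpt4, at 2.14 in the double-deficient and 1.15 in the DNase II-deficient array, was the gene with the largest positive difference, 0.90 on the log2 scale.

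Genes listed for the IgE receptor complex and its signalling were mostly higher in the DNase II-deficient array, unlike Cpa3 and Mcpt8. The list also held genes of other Fc receptors, Fcgr2b and Fcgr3, and Ms4a3, all at least 2-fold higher there than in wild-type. Of 18 with a probe, 12 passed the filter, 8 were at least 2-fold higher and none 2-fold lower than in wild-type, with a median log2 difference of 0.98 over 17. Of all genes, 7.67% were past 2-fold in the higher and 6.17% in the lower direction. Of the 17 list genes, 4 had negative differences. Among these, the IgE receptor gene Fcer2a read 1.03 in the DNase II-deficient and 2.02 in the wild-type array. The adaptor Lat had a log2 difference of -0.51. The common gamma chain Fcer1g read 19.7 in the DNase II-deficient, 12.9 in the double-deficient and 6.99 in the wild-type array. The adaptor Lat2 was 7.16-fold higher and the phosphatase gene Inpp5d 3.84-fold higher in DNase II-deficient than in wild-type livers. Ms4a3, the gene next to Ms4a2 on the chromosome and a marker of granulocyte and monocyte progenitors, read 21.3, 18.5 and 7.77 in the DNase II-deficient, double-deficient and wild-type arrays. The phospholipase Plcg2 read 27.1, 22.9 and 11.8 in the DNase II-deficient, double-deficient and wild-type arrays. Many genes of this list are shared with other blood cells, such as macrophages, neutrophils or B cells. Between the mutants, only Lat2 was past 2-fold in this list, 2.90-fold lower in the double-deficient array, as 4.85% of the 8303 genes were past 2-fold in that direction.

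**Figure D4:**
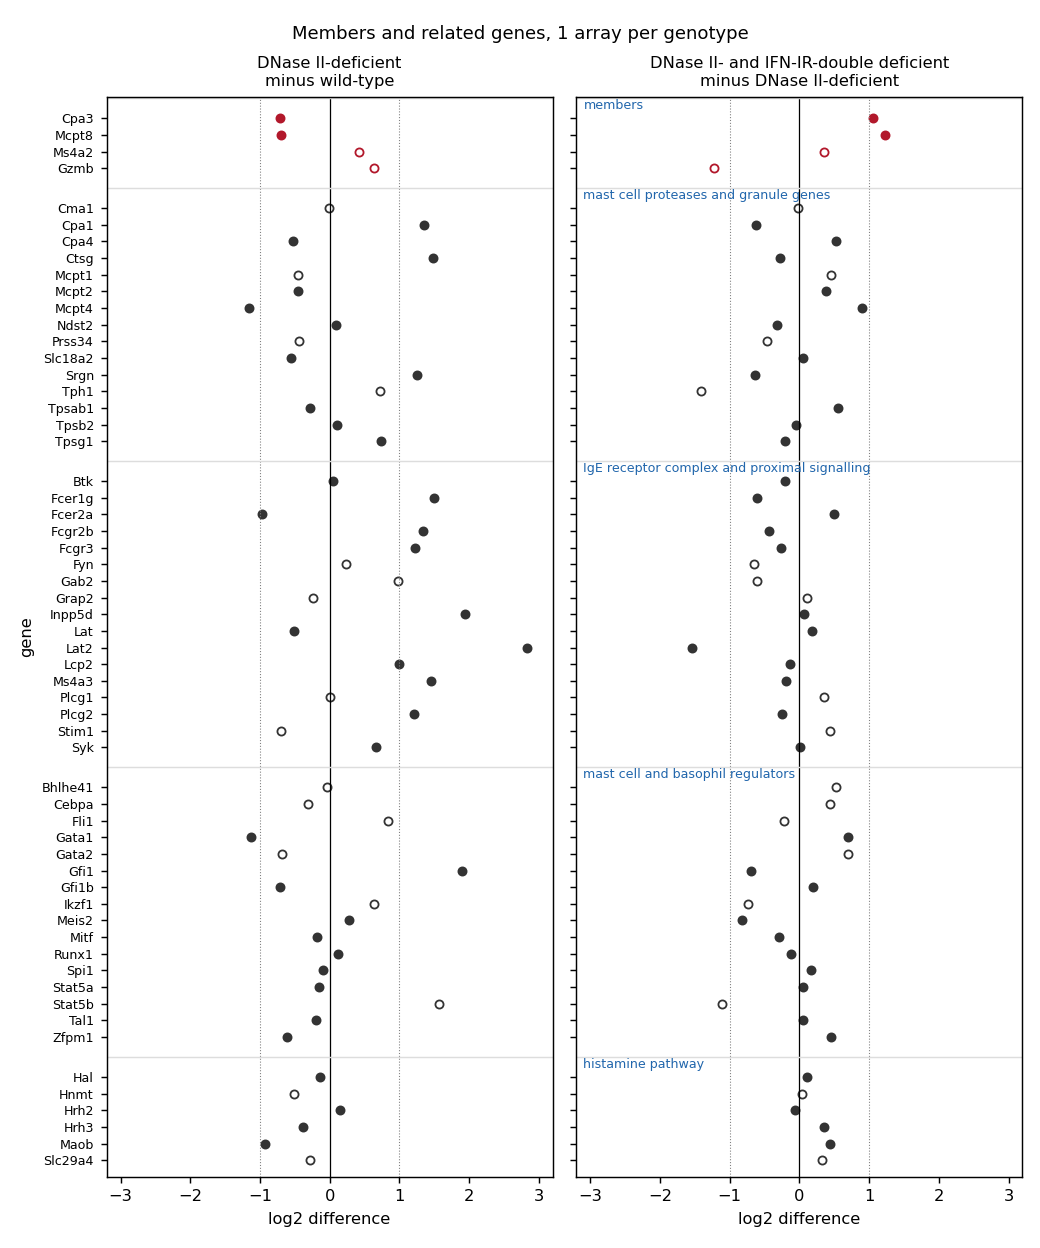
Log2 differences of the 4 measured members (red) and of related genes above the floor in at least 1 array (black), for DNase II-deficient minus wild-type (left) and double-deficient minus DNase II-deficient (right), with 1 dot per gene, filled where the gene passed the level filter, and dotted lines at 2-fold. Cpa3 and Mcpt8 are at -0.71 and -0.70 on the left and 1.06 and 1.22 on the right, while many IgE receptor and signalling genes lie to the right of 0 on the left, with a median of 0.98.

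Of 10 mast cell and basophil receptor genes past the filter, 2 were at least 2-fold higher in DNase II-deficient than in wild-type livers. Of all genes, 7.67% were, and the list's median over 12 was 0.50. The 2 receptor genes were the activation marker Cd69, at 8.78 and 1.70, and Csf2rb2, an interleukin-3 receptor chain, at 7.09 and 2.08. Kit, the stem cell factor receptor on which mast cells depend, was also on the list of stem and progenitor markers. It read 13.01 in the DNase II-deficient, 8.85 in the double-deficient and 9.13 in the wild-type array. Between the mutants, Cd69 was 2.10-fold lower in the double-deficient array. Itga2b, also counted among the megakaryocyte markers below, was just past 2-fold lower, at 1.66 against 3.33 in the DNase II-deficient array. These were 2 of 10 receptor genes, beside 4.85% of all genes. Kitl, the ligand of Kit, read 7.66, 10.8 and 16.2 in the DNase II-deficient, double-deficient and wild-type arrays. It was 2.12-fold lower in DNase II-deficient than in wild-type livers, where 6.17% of all genes were at least 2-fold lower. Among 6 growth factor and cytokine genes past the filter, Kitl was the only one 2-fold different in any comparison. The median of that list was 0.32 for DNase II-deficient minus wild-type and -0.31 for double-deficient minus DNase II-deficient.

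Of 10 regulators past the filter, 1 was past 2-fold in the higher and 1 in the lower direction in DNase II-deficient against wild-type livers, which is near the shares of all genes, 7.67% and 6.17%. Gata1, needed for mast cells and for red cells, read 7.64 in the DNase II-deficient array, 12.4 in the double-deficient array and 16.7 in the wild-type array. Gata2, which acts early in mast cell and basophil formation, was likewise also a stem and progenitor marker. It read 0.513, 0.830 and 0.826 in the DNase II-deficient, double-deficient and wild-type arrays and did not pass the filter. Gfi1, a transcriptional repressor needed for neutrophil formation, was 3.73-fold higher in the DNase II-deficient array than in wild-type. Mitf, the mast cell transcription factor, read 1.83, 1.49 and 2.07 in the DNase II-deficient, double-deficient and wild-type arrays. The list median was -0.15 for DNase II-deficient minus wild-type and 0.05 for double-deficient minus DNase II-deficient.

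No gene of the histamine pathway past the filter was 2-fold different in any comparison, and 4 of 8 with a probe passed. Maob, which degrades a histamine metabolite, read 8.30 in the DNase II-deficient array, 11.3 in the double-deficient array and 15.8 in the wild-type array. The receptor genes Hrh2 and Hrh3 read 1.05 and 2.997 in the DNase II-deficient array, against 0.954 and 3.91 in wild-type. The list's median was -0.33 for DNase II-deficient minus wild-type. Hnmt, the histamine methyltransferase, was above the floor in wild-type alone, at 0.226. Of all genes, 7.67% were at least 2-fold higher in DNase II-deficient than in wild-type livers. Of eicosanoid genes, 2 of 6 past the filter were this much higher, and the list's median was 0.32. They were Alox5ap, which activates leukotriene synthesis, at 35.5 in the DNase II-deficient and 9.41 in the wild-type array, and the leukotriene receptor Cysltr1, at least 8.68-fold higher, since its wild-type value was at the floor. Hpgds, the prostaglandin D synthase of mast cells, read 0.926, 1.62 and 0.466 in the DNase II-deficient, double-deficient and wild-type arrays and was 3.47-fold higher in the double-deficient than in the wild-type array.

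Gzmb is shared with killer lymphocytes, and the floor held much of the marker list of those cells. Of 18 NK and T cell markers with a probe, 10 were under the floor on all 3 arrays, among them Ncr1, Klrb1c, Cd3e, Cd8a and Zap70, and so was the perforin gene Prf1. Klrk1, an activating receptor of NK cells, was, like Gzmb, highest in the DNase II-deficient array, at 2.03 in the DNase II-deficient, 0.247 in the double-deficient and 0.172 in the wild-type array. Eomes read 6.36, 13.9 and 18.2 in the DNase II-deficient, double-deficient and wild-type arrays on 1 probe and was under the floor on the other. In the granzyme and cytotoxic granule list, 6 of 12 genes with a probe were above the floor, and Ctsc, the peptidase that activates granzymes and neutrophil proteases, read 65.5, 41.2 and 15.8 in the DNase II-deficient, double-deficient and wild-type arrays. Of that list, 2 of 6 genes past the filter were at least 2-fold higher in DNase II-deficient than in wild-type livers, with a median of 0.58. Of all genes, 7.67% were. The 2 genes were Ctsc and Nkg7, which is also a marker of NK and cytotoxic T cells. Nkg7 read 1.34 in the DNase II-deficient, 1.15 in the double-deficient and 0.649 in the wild-type array. Of 5 plasmacytoid dendritic cell markers with a probe, 3 had positive and 2 negative log2 differences in that comparison, with a median of 0.46. Among the 2 that passed the filter, Irf8 was 5.30-fold and Tcf4 1.77-fold higher. Below the filter, Ccr9 differed by 0.46, Ly6d by -0.28 and Pacsin1 by -1.01. The summed intensity of the list was 10.8 in the DNase II-deficient, 5.42 in the double-deficient and 5.83 in the wild-type array, of which Tcf4 gave 7.46, 3.25 and 4.22 in the DNase II-deficient, double-deficient and wild-type arrays. What these cells contribute to the Gzmb values was not tested.

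Markers of other blood cells moved beside the members. Of all genes, 7.67% were at least 2-fold higher in the DNase II-deficient than in the wild-type array, and 6.17% at least 2-fold lower. All 10 genes of the neutrophil granule list past the filter were at least 2-fold higher, among them Ms4a3, also counted in the IgE receptor list. The median was 1.502 over 13, and Elane read 60.5 and 21.9. The list's summed intensity was 847.3 in the DNase II-deficient, 687.7 in the double-deficient and 303.8 in the wild-type array, so it did not follow Cpa3 and Mcpt8. Of these sums, S100a9 alone gave 329.8, 270.9 and 123.7. Of 10 erythroid genes, 8 had, like Cpa3 and Mcpt8, their lowest value in the DNase II-deficient array. The transferrin receptor gene Tfrc was highest there, at 33.5 in the DNase II-deficient, 17.7 in the double-deficient and 18.6 in the wild-type array, and Ank1 was lowest in the double-deficient array. In DNase II-deficient livers 6 of the 10 were past 2-fold lower than in wild-type, beside 6.17% of all genes. Between the mutants, 5 were past 2-fold higher in the double-deficient array, beside 3.11% of all genes. The erythroid genes summed to 1530.1, 1889.6 and 2068.8 in the DNase II-deficient, double-deficient and wild-type arrays. Whether their share of the RNA bears on Cpa3 and Mcpt8 was not tested. Eosinophil markers summed to 58.1, 59.1 and 47.6 in the DNase II-deficient, double-deficient and wild-type arrays, of which Ear3 gave 30.1, 30.6 and 24.7. None of them was 2-fold different in DNase II-deficient against wild-type livers. Megakaryocyte markers had 1 of 8 past the filter 2-fold lower in that comparison, Nfe2, and a median of -0.16. Stem and progenitor markers had 1 of 5 2-fold higher, Cd34, and a median of -0.19. Hepatocyte genes had a median of 0.12 with 1 of 9, Serpina1a, 2-fold lower. Each count of 1 in these lists stands beside 6.17% of all genes lower and 7.67% higher. All 12 genes of the interferon-stimulated list were past 2-fold higher in DNase II-deficient than in wild-type livers, with a median of 5.25. Between the mutants, all 12 were past 2-fold lower in the double-deficient array, with a median of -4.73, beside 4.85% of all genes. In double-deficient against wild-type livers, 4 of 8 past the filter were past 2-fold higher, beside 2.05% of all genes.

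Genes with the closest pattern were found by the Euclidean distance over a pair of log2 differences (DNase II-deficient minus wild-type and double-deficient minus wild-type) among 7461 genes above the array median on all 3 arrays. Fancb, Plekha8 and C1qtnf12 lay nearest to Cpa3, at distances of 0.03, 0.04 and 0.04. Igf1, Fastkd3 and Cyp2c70 lay nearest to Mcpt8, at 0.02, 0.06 and 0.08. Igf1, the growth factor, read 2.67 in the DNase II-deficient, 6.21 in the double-deficient and 4.37 in the wild-type array. Cpa3 and Mcpt8 were 0.18 apart, and 43 and 16 were the ranks of Mcpt8 from Cpa3 and of Cpa3 from Mcpt8. Within a distance of 0.25 lay 114 genes for Cpa3, 33 for Mcpt8, 41 for Ms4a2 and 11 for Gzmb. Tmem268, 2310040G24Rik and Nek6 were nearest to Ms4a2, and Gpld1, Dlx1 and Zc3hav1 to Gzmb. With 3 arrays, such likeness is a description and many genes meet it.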

How the data were processed

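Poly(A) RNA of fetal liver was copied to biotin-labelled RNA, hybridised to CodeLink mouse arrays and read with CodeLink software, per the labels' protocols. Version, background method and filters: not given in the sources used here. Deposited values are normalised intensity on a linear scale, 1 per probe and array. Of 20289 probes, 125 lacked a value on some array and were left out. The platform annotation gave 15120 probes 1 symbol, 38 several and 5131 none. It can be old.

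Values were floored at each array's 25th percentile and log2 transformed in Python 3.11.15 with pandas 2.3.3. The probe with the highest mean log2 value stood for a gene with several probes, and 13697 genes were left. With 1 array per genotype, no test or p-value was computed, and the number of arrays limits the precision. Genes were counted at 1.5-fold and 2-fold if brighter than the median probe of 1 or both arrays. A list's median covered genes above the floor in at least 1 of them. Cyclic loess used limma 3.58.1. The steps were run on simulated data with differences of 2-fold or more, planted only in genes above the median of the wild-type array. That run does not cover smaller differences or dim genes such as Ms4a2 and Gzmb.

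The members and the 17 lists of related genes were chosen with earlier results of these data known. Named were all members, Dnase2a and Ifnar1 of the targeted genes, and the 3 nearest in pattern to each member. From the lists, some genes past 2-fold and some of the brightest genes were named, but not every such gene. Other list genes were named for their role after their values were seen. For lists of other cell types, fewer were named.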

Additional observations from a re-analysis of the deposited data

How the results depend on the processing

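With 1 array per genotype, results were recomputed under 9 alternatives of scaling, floor, pseudocount, level filter and probe choice. For DNase II-deficient minus wild-type, Cpa3 lay between -0.71 and -0.54 and Mcpt8 between -0.70 and -0.53, so the sign stayed negative, but the count of members at least 1.5-fold lower was 0 with 75th percentile scaling, with cyclic loess and with log2(value + 0.5). The all-gene median of that comparison was -0.21 as deposited, and -0.07, -0.07 and 0.03 after quantile, 75th percentile and loess scaling. The count of members at least 1.5-fold higher between the mutants was 2 under every alternative that left a member to count. With no level filter, Gzmb made the count 1 in place of 0 for higher in DNase II-deficient minus wild-type and for lower in double-deficient minus wild-type and in double-deficient minus DNase II-deficient, and Ms4a2 made it 1 for higher in double-deficient minus wild-type. With the floor at the array median, Ms4a2 and Gzmb had no value and the median of the members for DNase II-deficient minus wild-type was -0.71. A filter at the 75th percentile left no member to count. With log2(value + 0.5), Ms4a2 in double-deficient minus wild-type was 0.27. No paired analysis was possible because each genotype has 1 array. Ms4a2 and Gzmb lay under the median of every array.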
